A study of Mus musculus with 6 samples.

Results

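10 genes of the integrated stress response were followed in BV2 cells with and without PGC-1α overexpression: the transcription factors Atf4, Atf5, Atf3 and Ddit3, the feedback regulators Trib3 and Ppp1r15a, the amino acid enzymes Asns and Psat1, and the effectors Chac1 and Sesn2. They comprise ATF4 itself and genes that textbooks place downstream of it, and they were chosen by name. A probe was taken as belonging to one of them if the accession printed beside its spot matched that gene in the RefSeq table of mouse genes, and every such probe was kept. This gave 14 probes of 10 genes, of 56605 probes on the array, of which 33767 matched 23462 genes.
BV2 cells are immortalized microglia of the mouse, and all had been treated with LPS, a component of bacterial membranes. The culture methods give LPS at 500 ng/ml for 6 h, without saying whether this applied to the arrays. The 3 control arrays carried RNA of BV2 cells without PGC-1α overexpression, and the 3 others RNA of PGC-1α-overexpressing BV2 cells, with 1 RNA sample on each array. PGC-1α, encoded by Ppargc1a, is a transcriptional coactivator best known for mitochondrial biogenesis. Overexpression came from a lentiviral vector with a ubiquitin promoter, EGFP and puromycin resistance, with puromycin selection at 2 µg/ml, and a negative control lentivirus was also used; neither the labels nor the methods say that the control cells of the arrays had received it, nor that the replicates were separate cultures, so p-values measure the spread between these samples. Slide 1 held replicates 1 and 2 of both groups and slide 2 held replicate 3 of both.
In the integrated stress response, one of several kinases phosphorylates the translation initiation factor eIF2α. General protein synthesis then drops while the mRNA of ATF4 is translated better, so that ATF4 protein, a basic leucine zipper factor, can increase without a change of its mRNA. ATF4 binds composite C/EBP-ATF elements, often as a dimer with a C/EBP protein, and drives genes for amino acid supply, redox balance and, under lasting stress, growth arrest and cell death. In microglia and macrophages this response is also engaged by LPS and by mitochondrial stress.
Each value is the spot's green-channel intensity, after the scanner software's background subtraction, as log2 minus the 75th percentile of its own array. That percentile lay between 1617 and 1893 in control and between 856 and 1268 in overexpression, so all overexpression arrays were dimmer. After this scaling the median log2 fold change of all 38919 probes tested was 0.25 (overexpression minus control), and after quantile normalization, which forces the same distribution on every array, it was 0.05. Differences of the 10 genes were therefore read against that median as well as against 0. The median is only a rough baseline, since the scalings differed more for bright probes than for dimmer ones. From the 75th percentile scaling to quantile normalization, the bright probes of Atf4 and Ddit3 went from 0.26 to -0.26 and from 1.19 to 0.70. The dimmer ones of Trib3 and Sesn2 went from 0.83 to 0.79 and from -0.29 to -0.30. All 14 probes were well above background on all 6 arrays and none was saturated. Ppargc1a itself gave no firm check of the labels. One of its probes read 21.8, 19.6 and 9.06 in control and 22.3, 22.1 and 21.2 in overexpression, and the other read 14.1, 20.3 and 13.8 against 9.07, 12.4 and 15.1. Neither cleared the background on each array of a group, so neither was tested, and the position of the probes relative to the lentiviral coding sequence is not known here. Of the 12 microglia and macrophage markers, 10 were well above background on all arrays, while Cx3cr1 and P2ry12 were so on none. All 4 oligodendrocyte markers, 3 of 5 astrocyte, 2 of 4 neuronal and 2 of 3 endothelial markers were also well above background on all arrays. Markers moved with the groups as well. Of the microglia and macrophage markers tested, 5 of 10 rose and 1 fell, Tmem119 with a log2 fold change of -2.68 (adjusted p = 7.95e-05 in limma). Of the other markers tested, Aqp4 and Aldh1l1 (of 4 astrocyte markers), Snap25 (of 2 neuronal), Mag (of 4 oligodendrocyte) and Cldn5 (of 2 endothelial) rose, and the neuronal Tubb3 fell. Summed over a list and as multiples of the array's 75th percentile, the markers lay at 91.1 to 94.96 in control and 129 to 151 in overexpression for microglia and macrophages, 24.2 to 29.7 and 36.5 to 49.8 for neurons, 1.02 to 1.135 and 1.16 to 1.305 for oligodendrocytes, 0.254 to 0.301 and 0.429 to 0.560 for astrocytes, and 0.0559 to 0.0709 and 0.0739 to 0.0953 for endothelium. The neuronal sum was mostly Snap25, with unscaled intensities of 35479 to 52544 in control and 40658 to 51087 in overexpression, which overlap. Tubb3 read 3236 to 3666 in control and 1226 to 1596 in overexpression. The part of the markers in the results was not tested.

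The sequences upstream of these genes are shown first because textbooks place the genes, Atf4 itself apart, downstream of ATF4. The activity of ATF4 was not measured here. Sequences are from RefSeq, build GRCm38.p6, 5′ to 3′ on the strand of the gene, and end at the base before the annotated start. All 10 genes matched, with 12 windows of 250 bases, since Atf5 and Psat1 have 2 each. Chac1, with the lowest fold change of the 10 genes, and Ddit3, with the highest, are given in full, and capitals mark matches to the letters searched.
Chac1, chr2:119350992-119351241, plus strand: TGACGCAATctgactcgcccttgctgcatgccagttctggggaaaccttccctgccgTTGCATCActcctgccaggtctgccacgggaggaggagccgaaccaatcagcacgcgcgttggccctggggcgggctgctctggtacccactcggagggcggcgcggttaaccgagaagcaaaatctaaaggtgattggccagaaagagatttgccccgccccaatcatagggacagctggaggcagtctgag
Ddit3, chr10:127290543-127290792, plus strand: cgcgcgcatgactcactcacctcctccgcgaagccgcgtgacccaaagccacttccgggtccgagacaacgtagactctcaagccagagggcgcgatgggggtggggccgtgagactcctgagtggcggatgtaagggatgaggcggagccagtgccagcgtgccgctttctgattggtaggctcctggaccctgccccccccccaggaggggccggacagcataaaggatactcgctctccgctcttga
The letters were searched on both strands and chosen after the sequences had been seen. They were TGATGNAA, a C/EBP-ATF element, TGNNGCAAT, another form of it with other letters left free, and TGACGTCA. The last is the cyclic AMP response element (CRE) that ATF and CREB factors bind. The C/EBP-ATF forms can overlap, since 1 stretch of letters can meet both. TGATGNAA was found in 3.45% of 32851 windows of this length over all genes, TGNNGCAAT in 1.79% and the CRE in 1.55%. Among the 12 windows TGATGNAA was found in 3, TGNNGCAAT in 3 and the CRE in 1. The Chac1 window held both C/EBP-ATF forms, TTGCATCA 193 bases and TGACGCAAT 250 bases upstream of the start. The Ddit3 window held none of the letters searched, nor did those of Atf4, Atf5 and Sesn2. Only these 250 bases were searched, so a window without a match does not show that the gene lacks the element farther away. The other matches are printed with up to 20 bases on either side, so that their letters can be compared.
Trib3, chr2:152344065-152344113, minus strand: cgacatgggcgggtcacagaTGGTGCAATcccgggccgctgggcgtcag
Psat1, chr19:15925167-15925215, minus strand: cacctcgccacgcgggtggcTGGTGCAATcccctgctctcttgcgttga
Atf3, chr1:191183416-191183463, minus strand: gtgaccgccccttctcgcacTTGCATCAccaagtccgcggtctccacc
Asns, chr6:7693210-7693252, minus strand: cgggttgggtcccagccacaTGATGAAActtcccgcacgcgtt
Ppp1r15a, chr7:45526269-45526300, minus strand: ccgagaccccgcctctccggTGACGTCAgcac
Trib3 and Psat1 carried the same 9 letters, TGGTGCAAT, 33 and 136 bases upstream. Atf3 carried the same TTGCATCA as Chac1, 110 bases upstream. Asns carried TGATGAAA 23 bases upstream and Ppp1r15a the CRE 12 bases upstream. A match is a description of letters and not evidence of binding.

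Of the 10 genes, Chac1 fell and Ddit3 rose most in the cells labelled PGC-1α-overexpressing. Ddit3, Trib3 and Ppp1r15a rose and Chac1 fell under each of the 18 alternative treatments of the data with a test. Atf3 and one Psat1 probe rose with the 75th percentile scaling but did not pass after quantile normalization. Atf4, Atf5, Asns and Sesn2 did not pass in this fit. Of these, Atf4 passed as higher with a variance trend, and 1 probe each of Atf4, Atf5 and Asns passed under other alternatives, Asns as lower. Of the 14 probes, 13 were tested, and 6 of them, 1 for each of 6 genes, passed an adjusted p of 0.05 in limma with Benjamini-Hochberg adjustment over all probes tested. That is 46.2% of the 13, against 53.8% of all probes tested. The 5 higher probes were 38.5%, against 35.4% of all probes, and the 1 lower probe was 7.69%, against 18.4%. Counted by the brightest probe of each gene, 6 of 10 genes passed, against 53.3% of 17062 genes. After quantile normalization 4 of 13 probes passed (30.8%), against 43.5% of all probes.

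**Figure D1:**
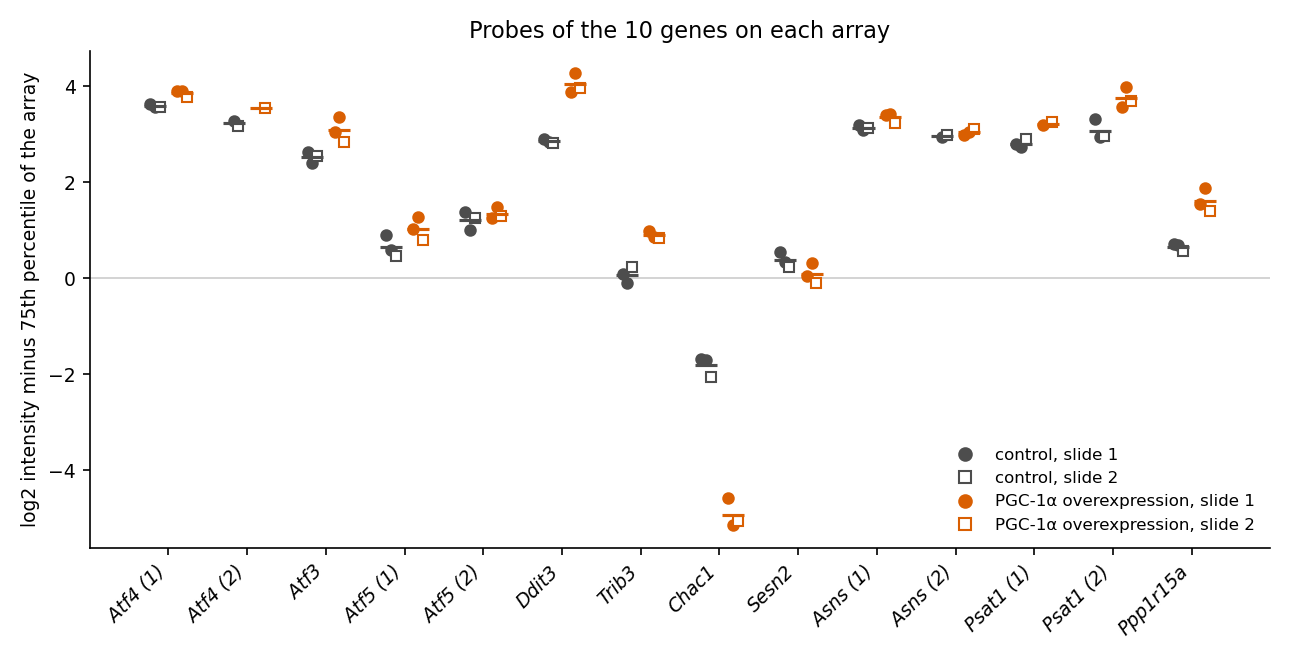
Log2 intensity minus the 75th percentile of the array (y axis) for the 14 probes of the 10 genes (x axis; numbers in brackets separate probes of 1 gene). Each point is 1 array, circles for slide 1 and squares for slide 2, and bars are group means; Chac1 lies near -1.81 in control and -4.93 in overexpression, while Ddit3 goes from 2.86 to 4.04.

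**Figure D2:**
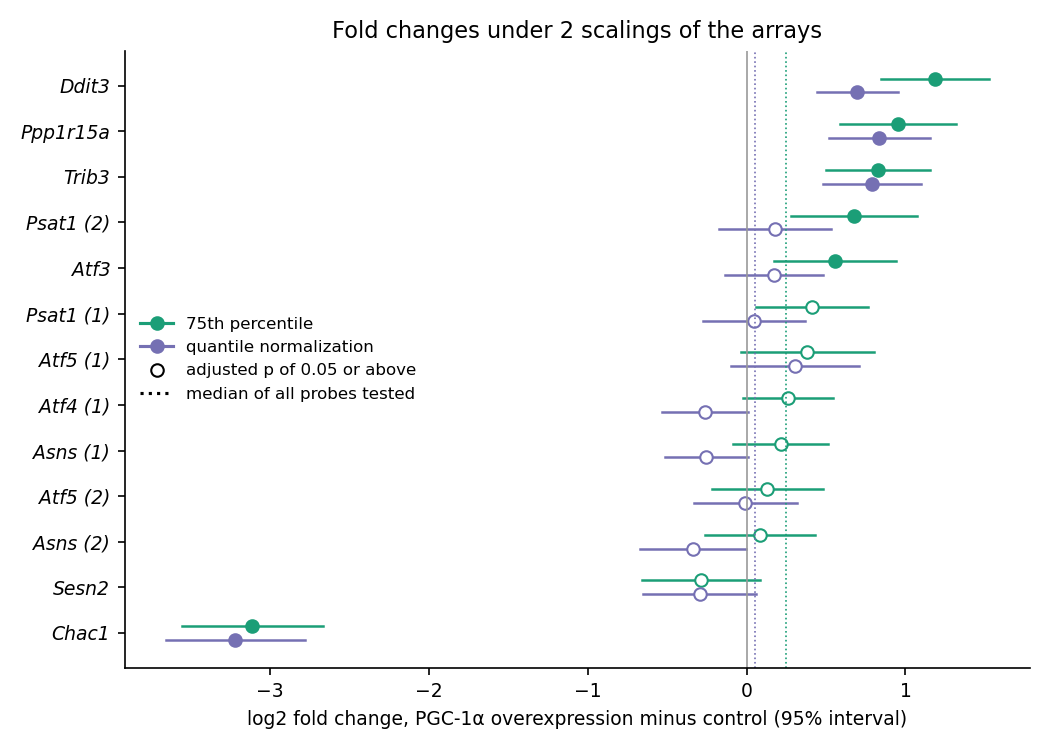
Log2 fold change, overexpression minus control (x axis), of the 13 tested probes (y axis) with 95% intervals, under the 75th percentile scaling and after quantile normalization. Filled points passed an adjusted p of 0.05 and dotted lines mark the medians of all probes, 0.25 and 0.05; 4 probes are filled under both scalings.

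Among the transcription factors, Atf4 mRNA differed little. ATF4 is the factor whose translation rises when eIF2α is phosphorylated, so its mRNA level does not report its activity. On the better measured Atf4 probe the log2 relative level was 3.63, 3.57 and 3.58 in control and 3.90, 3.89 and 3.78 in overexpression. The groups did not overlap (exact permutation p = 0.1, two-sided, the smallest that 3 against 3 arrays allow). The log2 fold change was 0.26 (SE 0.12, 95% interval -0.02 to 0.54, adjusted p = 0.104 in limma), which lay 0.01 above the median of all probes. Under quantile normalization it was -0.26 (adjusted p = 0.106), so no direction can be given for Atf4. With a variance trend and robust estimation the value of 0.26 passed (adjusted p = 0.0433). Unscaled, the same spot read 20076, 19335 and 22628 in control and 17214, 12720 and 17380 in overexpression. The second Atf4 probe had lost 1 control and 2 overexpression spots to outlier marks and was not tested; the remaining log2 relative levels were 3.28 and 3.18 in control and 3.55 in overexpression. With the marked spots kept, an alternative added after seeing the data, it was tested and passed at 0.45 (95% interval 0.13 to 0.77, adjusted p = 0.026), and in the authors' log2 values it was at -0.04 (adjusted p = 0.765).
Atf5, a close relative of ATF4 that is translated by the same mechanism and takes part in the mitochondrial stress response, did not pass on either probe. The log2 fold changes were 0.13 (95% interval -0.22 to 0.48, adjusted p = 0.483 in limma) on the brighter probe and 0.38 (-0.04 to 0.80, adjusted p = 0.106) on the other, which passed with the normexp background correction and the 75th percentile scaling (0.35, adjusted p = 0.046). The arrays of both groups overlapped on both probes.
Atf3, a stress-induced factor that dampens inflammatory gene expression in macrophages, had log2 relative levels of 2.63, 2.41 and 2.54 in control and 3.05, 3.36 and 2.84 in overexpression. The groups did not overlap. The log2 fold change was 0.56 (SE 0.17, 95% interval 0.17 to 0.94, adjusted p = 0.0241 in limma), 0.31 above the median of all probes. Atf3 passed under 10 of the 18 alternatives with a test. After quantile normalization it was 0.17 (adjusted p = 0.313). With normexp and quantile normalization it was 0.16 (adjusted p = 0.288), and with the authors' log2 values 0.17 (adjusted p = 0.321). It missed the threshold with the median (0.45, adjusted p = 0.0597) and with no filter on dim probes (0.56, adjusted p = 0.0542). It also missed it without control replicate 2 (0.50, adjusted p = 0.082), without control replicate 3 (0.56, adjusted p = 0.0639) and without overexpression replicate 1 (0.57, adjusted p = 0.063).
Ddit3 encodes CHOP, the factor that ATF4 induces in prolonged stress and that promotes cell death. Its intensity was 12032, 11687 and 13412 in control and 17062, 16535 and 19853 in overexpression, so it was brighter on each overexpression array even before scaling and although those arrays were dimmer overall. The log2 relative levels were 2.90, 2.84 and 2.83 against 3.88, 4.27 and 3.97. The control arrays lay close together (SD 0.04, n = 3) and the overexpression arrays spread more (SD 0.20, n = 3), without overlap. In limma the log2 fold change was 1.19 (SE 0.15, 95% interval 0.85 to 1.52, adjusted p = 0.000837), a 2.28-fold rise. It was 1.21 on slide 1 and 1.14 on slide 2. Among all probes tested 1668 had a larger positive value. After quantile normalization the rise was 0.70, below 2-fold.

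Both feedback regulators rose. Trib3 encodes a pseudokinase induced by ATF4 and CHOP that binds ATF4 and restrains it. Its log2 relative levels were 0.09, -0.10 and 0.23 in control and 0.99, 0.87 and 0.85 in overexpression, without overlap. Its log2 fold change was 0.83 (SE 0.14, 95% interval 0.50 to 1.15, adjusted p = 0.00296 in limma), 0.58 above the median of all probes. It was 0.93 on slide 1, 0.61 on slide 2 and 0.79 after quantile normalization.
Ppp1r15a encodes GADD34, which brings protein phosphatase 1 to eIF2α and so ends the response. Its intensity was 2639, 2635 and 2814 in control and 3406, 3139 and 3336 in overexpression, again brighter on each overexpression array before scaling. The log2 relative levels were 0.71, 0.70 and 0.57 against 1.56, 1.88 and 1.40. Its log2 fold change was 0.95 (SE 0.16, 95% interval 0.59 to 1.32, adjusted p = 0.00268 in limma), or 1.93-fold. It was 1.02 on slide 1, 0.82 on slide 2 and 0.83 after quantile normalization.

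Of the enzymes, Asns did not pass the test and Psat1 passed on one of its probes. Asns encodes asparagine synthetase, among the best studied targets of the amino acid response. On its brighter probe the log2 relative levels were 3.20, 3.09 and 3.14 in control and 3.41, 3.43 and 3.23 in overexpression. The log2 fold change was 0.21 (95% interval -0.08 to 0.51, adjusted p = 0.188 in limma), and it was -0.25 after quantile normalization (adjusted p = 0.105). The other Asns probe, with 2 control values, gave 0.09 (-0.26 to 0.43, adjusted p = 0.641) and -0.34 after quantile normalization (adjusted p = 0.0899). The sign for Asns thus followed the scaling, as it did for Atf4.
Psat1 encodes phosphoserine aminotransferase, an enzyme of serine synthesis. Its brighter probe had log2 relative levels of 3.31, 2.95 and 2.96 in control and 3.57, 4.0 and 3.69 in overexpression. A log2 fold change of 0.68 (SE 0.17, 95% interval 0.28 to 1.07, adjusted p = 0.0127 in limma) resulted. On the other probe, with 2 overexpression values, it was 0.41 (0.06 to 0.77, adjusted p = 0.0512). Both probes shrank after quantile normalization, to 0.18 (adjusted p = 0.37) and 0.05.

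Chac1 encodes the enzyme that degrades glutathione inside the cell, and it is induced through ATF4, ATF3 and CHOP. With the 75th percentile scaling it was the only member probe that passed as lower. Its intensity was 504, 500.1 and 454 in control and 48.3, 24.2 and 38.2 in overexpression. The log2 relative levels were -1.68, -1.70 and -2.06 against -4.58, -5.15 and -5.05. The gap between the lowest control array and the highest overexpression array was far larger than the spread within either group (SD 0.21 and 0.30, n = 3 each). In limma the log2 fold change was -3.11 (SE 0.19, 95% interval -3.56 to -2.67, adjusted p = 5.3e-05), an 8.65-fold fall. It was -3.17 on slide 1, -3.00 on slide 2 and -3.22 after quantile normalization, and of all 38919 probes tested 123 had a more negative value. The size depended on the treatment of the background, since the overexpression signals were dim: with the normexp correction and the 75th percentile scaling the log2 fold change was -1.94, and with normexp and quantile normalization -2.18. The direction and the call stayed the same.
Sesn2 encodes sestrin 2, a stress-induced inhibitor of mTORC1 signalling. Its intensity was 2348, 2061 and 2228 in control and 1193, 1067 and 1177 in overexpression. After scaling the log2 relative levels were 0.54, 0.34 and 0.24 against 0.04, 0.32 and -0.11, and the groups overlapped. The log2 fold change was -0.29 (SE 0.16, 95% interval -0.66 to 0.09, adjusted p = 0.162 in limma), 0.53 below the median of all probes. It was negative but did not pass under any of the 18 alternatives with a test (range -0.40 to -0.19).
Over the 13 tested probes the groups did not overlap for 10 (76.9%), against 63.8% of all probes tested. Only Ddit3 and Chac1 passed with a change of at least 2-fold, 2 of 13 probes (15.4%), against 16.5% of all probes.

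Since the arrays differed in brightness, each gene was also taken as a log2 ratio to the better measured Atf4 probe of the same array, which no scaling by a single factor for each array can alter. The ratio shows unequal change between probes and says nothing of Atf4 itself. For Ddit3 the ratio was -0.74, -0.73 and -0.75 in control and -0.01, 0.38 and 0.19 in overexpression, a difference of 0.93. For Chac1 it was -5.32, -5.27 and -5.64 against -8.48, -9.04 and -8.83, a difference of -3.37. The difference was 0.69 for Ppp1r15a and 0.57 for Trib3, and the groups of both genes did not overlap. Sesn2 also separated on this measure, with ratios of -3.10, -3.23 and -3.34 against -3.85, -3.58 and -3.88 and a difference of -0.55 (exact permutation p = 0.1, the smallest possible). For Atf3 the difference was 0.30, without overlap, and for the brighter Psat1 probe 0.42, with overlap. For the brighter Asns probe the difference was -0.05 (-0.45 ± 0.03 against -0.50 ± 0.04, SD, n = 3 each), with overlap. The other Asns probe, with 2 control values, had ratios of -0.62 and -0.59 against -0.91, -0.85 and -0.66, without overlap, and a difference of -0.19. By the brightest probe of each gene, Ddit3, Ppp1r15a, Trib3 and Atf3 thus lay above their control ratio to Atf4. Chac1 and Sesn2 lay below it, and Asns, Atf5 and Psat1 had overlapping groups. The share of all probes whose groups separate on this ratio was not computed. Before the ratio was taken, the groups did not overlap for 63.8% of all probes tested. Whether these genes separated from Atf4 more often than other probes was therefore not tested, for Sesn2 included. Quantile normalization is not a single factor for each array and can alter the ratio, which was not computed with it. The log2 fold changes after quantile normalization were -0.30 for Sesn2 and -0.26 for Atf4, close together, while Trib3 was at 0.79. The lower ratio of Sesn2 therefore holds for scaling by a single factor only.

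**Figure D3:**
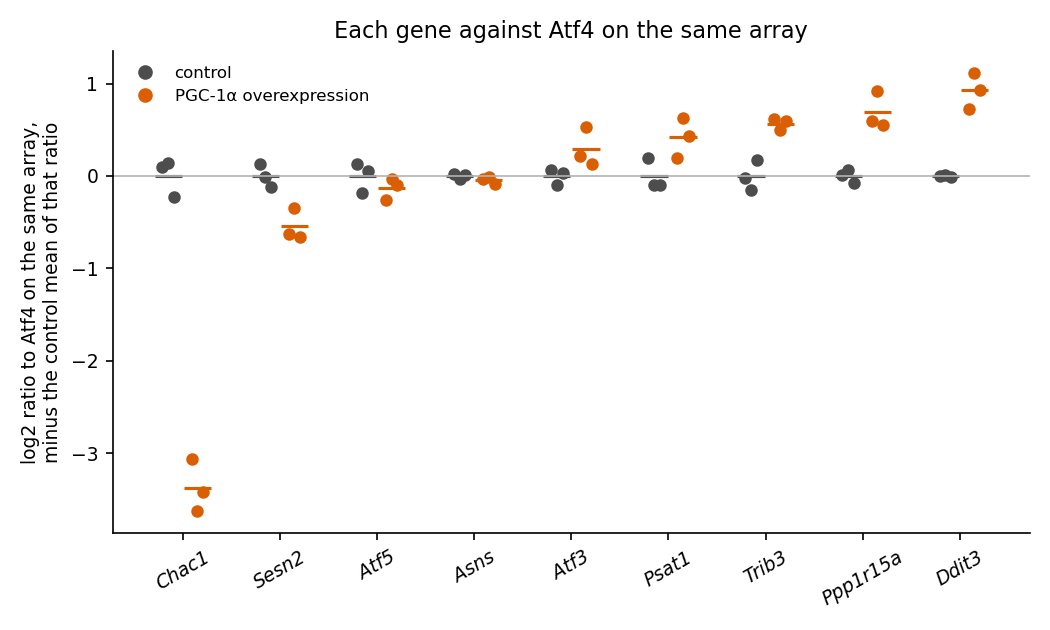
Log2 ratio of each gene to Atf4 on the same array, minus the control mean of that ratio (y axis), for the brightest probe of the other 9 genes (x axis), ordered by the difference. Each point is 1 array and bars are group means; Chac1 lies 3.37 below and Ddit3 0.93 above its control mean, and Sesn2 lies 0.55 below.

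The genes around the 10 were described from 4 lists, with the brightest tested probe of each gene and no test of a list. The median log2 fold change of the 10 genes was 0.41, against 0.25 for all probes, and after quantile normalization 0.08 against 0.05. For the counts below, 35.4% of all probes tested rose and 18.4% fell, and 53.3% of genes by their brightest probe changed in either direction. After quantile normalization 8908 of all 38919 probes tested rose and 8013 fell.
Among the eIF2 kinases and their circuit, 2 of 19 tested genes rose, 5 fell and 12 did not pass, with a median of 0.06 (-0.21 after quantile normalization, again with 2 higher and 5 lower). Eif2s3x, the X-linked γ subunit of eIF2, rose by 0.79 (adjusted p = 0.00223 in limma; 0.35 after quantile normalization), and Dnajc3, an inhibitor of PERK in the endoplasmic reticulum, rose by 0.72. Oma1, the mitochondrial protease that passes mitochondrial stress toward eIF2α phosphorylation, had a log2 fold change of -1.60. Eif2ak4, the kinase GCN2 that senses uncharged tRNA, had one of -1.27 (adjusted p = 0.00289 in limma). The remaining eIF2 kinases, named after their values were seen, also fell. The log2 fold change was -1.26 for Eif2ak3, which encodes PERK (adjusted p = 0.0483, with 2 control values), -0.54 for Eif2ak1, which encodes HRI (adjusted p = 0.0419), and -0.52 for Eif2ak2, which encodes PKR (adjusted p = 0.0241). All 4 kinases kept a negative sign under each alternative run, and Eif2ak4 passed under each. The overexpression signals of Eif2ak4 (69.1 to 176) and Eif2ak3 (39.0 to 152) were dim, and the sizes depended on the treatment of the background. With normexp and the 75th percentile scaling they were -0.88 for Eif2ak4 and -0.80 for Eif2ak3, below 2-fold. With normexp and quantile normalization they were -1.02 and -1.07. Oma1 was dim in overexpression as well (74.8 to 142), and its values in these fits were -1.25 and -1.40. Eif2ak1 passed under 9 of 18, Eif2ak2 under 13 of 18 and Eif2ak3 under 10 of 15. After quantile normalization Eif2ak1 (adjusted p = 0.0583) and Eif2ak3 (adjusted p = 0.0589) missed the threshold. With single arrays left out, Eif2ak1 passed only without control replicate 2 (-0.69) and was lowest in size without control replicate 1 (-0.36, adjusted p = 0.117). Eif2ak2 then passed without control replicate 1 (-0.60) and overexpression replicate 3 (-0.61) and was at -0.43 to -0.51 without any other array. Eif2ak3 passed without overexpression replicate 3 (-1.55) and missed the threshold without control replicate 2 (-1.26), overexpression replicate 1 (-1.40) and overexpression replicate 2 (-0.85).
Among the genes of amino acid supply, 5 of 16 rose, 2 fell and 9 did not pass, with a median of 0.28 (-0.16 after quantile normalization). Slc7a11, the cystine importer that feeds glutathione synthesis, rose by 1.61 (SE 0.14), and its partner chain Slc3a2 rose by 0.75. Slc38a2, a neutral amino acid transporter, had a log2 fold change of -1.26, and Slc1a5, a glutamine transporter, one of -0.64, which missed the threshold without overexpression replicate 1 (-0.67, adjusted p = 0.055). After quantile normalization 1 of the 16 rose and 2 fell, and Slc3a2 was at 0.09 (adjusted p = 0.498), while Slc7a11 passed under each alternative with a test (1.19 to 1.70). Slc7a11 and Chac1 act on opposite sides of the glutathione pool, one importing its precursor and the other degrading it.
Among other ATF4-linked stress genes, 8 of 14 rose, 3 fell and 3 did not pass, with a median of 0.63 (0.30 after quantile normalization, with 6 higher and 2 lower). Gadd45a, a growth arrest gene, rose by 1.17 and Ndrg1, a gene of hypoxia and stress, by 1.13 (0.66 after quantile normalization). Stc2, a secreted glycoprotein, had a log2 fold change of -0.94 and Xpot, a tRNA exporter, one of -0.83. Xpot passed narrowly (adjusted p = 0.0479), and not after quantile normalization (-0.81, adjusted p = 0.0697). With single arrays left out it passed without control replicate 1 (-1.02) and overexpression replicate 1 (-1.05) and missed the threshold without control replicate 2 (-0.79), control replicate 3 (-0.68), overexpression replicate 2 (-0.50, adjusted p = 0.102) and overexpression replicate 3 (-0.94).
Among the XBP1 and ATF6 arms of the unfolded protein response, 10 of 16 rose, 1 fell and 5 did not pass, with a median of 0.54. Those that did not pass were Xbp1 (-0.04) and Atf6 (0.23) themselves, Ern1 (0.32), Dnajb9 (0.18) and Edem1 (0.07). Hspa5, the chaperone BiP, and Sdf2l1, a component of the same chaperone complex, each rose by 1.07, Hspa5 with 2 overexpression values. After quantile normalization they stood at 0.54 and 0.62. Wfs1, an endoplasmic reticulum membrane protein, had a log2 fold change of -1.14 and was the gene that fell. After quantile normalization 6 rose and 2 fell, with a median of 0.30 against 0.05 for all probes.

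**Figure D4:**
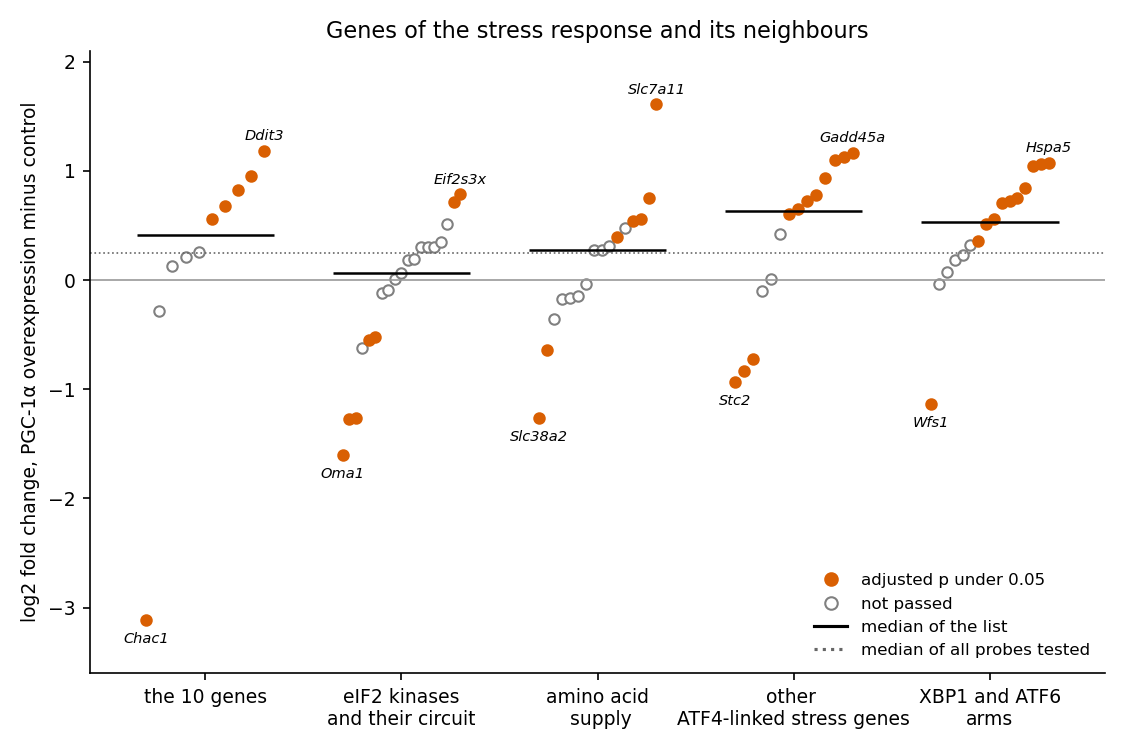
Log2 fold change, overexpression minus control (y axis), of the 10 genes and of the tested genes of 4 related lists (x axis), 1 point for the brightest probe of each gene. Filled points passed an adjusted p of 0.05, bars are list medians and the dotted line is the median of all probes (0.25); Chac1 lies below and Slc7a11 above all other points shown.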

How the data were processed

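The 6 Agilent arrays of a single colour carried RNA of LPS-treated BV2 cells, 3 for each group. The labels gave the group, the replicate number and the slide of each array. The labels give the dye as Cy3, the methods as Cy5. The deposited files hold background-subtracted green-channel intensity values of the authors' scanner software, not normalized between arrays. The authors also deposited log2 values of 42110 probes, normalized in GeneSpring by a procedure not given in the sources used here. Their column medians lie between 8.2934 and 8.2943, and each correlates with its own array with r between 0.99878 and 0.99984 across probes, which are not independent replicates.
Log2 intensity minus the 75th percentile of the 59305 spots other than controls was used. Outlier spots, 149 to 1590 on an array, were dropped, and repeated spots of a probe were averaged. Testing required at least 2 values in each group and a signal well above background throughout at least 1 group, which left 38919 probes, 1605 of them lacking a value. These were fitted in R 4.3.3 with limma 3.58.1 (lmFit, eBayes; two-sided) and adjusted by Benjamini-Hochberg, with a threshold of 0.05. Of the probes, 59.7% matched 1 RefSeq gene by accession. The array design names an older build than the RefSeq table, so no probe coordinates are given. The steps were tested on simulated data. Python 3.11.15, pandas 2.3.3 and matplotlib 3.10.9 were used for sequences and plots.
The genes, the lists and the alternatives were chosen with earlier results of these data known. From each list, the 2 genes that rose most and the 2 that fell most were named, among those that passed without overlap of the groups and were well above background in both. The number of arrays, spots lost to outlier marks and, for dim probes, the background limit the precision. Alternatives were quantile normalization, normexp (offset 50) with either scaling, the median, other filters on dim probes, 1 probe a gene, a block for the slide or for the replicate number, a variance trend, the deposited log2 table, leaving out single arrays, a 2-fold threshold and, added after seeing the data, outlier spots kept, where they also count toward the background filter.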

Additional observations from a re-analysis of the deposited data

How the results depend on the processing

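Ddit3, Trib3, Ppp1r15a and Chac1 kept their direction and passed under each of the 18 alternatives with a test. Over the 13 tested probes and 18 fits, the values with another sign than with the 75th percentile scaling were these. With quantile normalization Atf4 was at -0.26, the brighter Atf5 probe at -0.0094 and the Asns probes at -0.25 and -0.34. With normexp and quantile normalization they were at -0.25, -0.0331, -0.22 and -0.39, and the second Psat1 probe at -0.0595. With the authors' log2 values they were at -0.26, -0.0048, -0.25 and -0.36. The second Asns probe was also at -0.0051 with the median and at -0.0265 with normexp and the 75th percentile, and it passed as lower with normexp and quantile normalization (adjusted p = 0.0433) and with the authors' values (adjusted p = 0.039). The cause was not tested.
Of all probes called, 65.9% were higher, against 52.6% with quantile normalization, 56.6% with the median, 51.9% with the authors' values, 76.8% with normexp and the 75th percentile and 49.1% with normexp and quantile normalization. Member probes called higher numbered 3 instead of 5 with quantile normalization, with normexp and quantile normalization and with the authors' values, and those called lower numbered 2 instead of 1 with the last pair. Over all probes tested, 8908 of 38919 were called higher and 8013 lower with quantile normalization. With normexp and quantile normalization these were 7462 and 7750 of 38919, and with the authors' values 8864 and 8201 of 42110. Genes called in the amino acid supply list numbered 3 instead of 7 with quantile normalization and with the authors' values. In the eIF2 list they numbered 11 instead of 7 with normexp and quantile normalization and with a variance trend, and 4 with no filter on dim probes. With a 2-fold threshold 6434 probes remained of 20943, 2 member probes (1 higher) of 2 genes, and 3, 2, 3 and 4 genes of the eIF2, amino acid, other ATF4-linked and XBP1 and ATF6 lists. Testing 1 probe a gene, with fewer features tested, gave 9633 calls.
With each array left out in turn, 15583 to 21564 probes, 5 to 7 member probes (4 to 6 higher and 1 lower) and 5 to 6 member genes passed; the lists gave 4 to 6, 3 to 7, 9 to 11 and 7 to 10 genes in the same order. The amino acid list had 3 genes without control replicate 2 and 4 without control replicate 3, the eIF2 list 4 without overexpression replicate 1 or 2, and the XBP1 and ATF6 list 7 without overexpression replicate 1. Same-numbered arrays of the groups deviated with correlations of -0.206, 0.003 and 0.592. These values cannot decide whether the replicate numbers pair the arrays, since each group has 3 arrays and replicate 3 alone lay on slide 2. With the replicate block 22803 probes and 6 member probes passed, and no member call changed. With the slide as a block 24083 probes and 8 member probes passed, the added ones being of Atf5 and Psat1 (adjusted p = 0.05 after rounding and 0.048). A variance trend gave 8 member probes, the added ones of Atf4 (adjusted p = 0.0433) and Psat1 (adjusted p = 0.0155). Keeping outlier spots gave 8, the added ones being the second probes of Atf4 (adjusted p = 0.026) and Psat1 (adjusted p = 0.019), and normexp with the 75th percentile 7, with an Atf5 probe (adjusted p = 0.046). Dim signal limits the size of the Chac1 fall, and 3 arrays a group limit all intervals.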
